A study of Quercus robur with 6 samples.

Results

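The miR167 family of microRNAs and the transcripts sliced under its guidance were examined in roots of pedunculate oak (Quercus robur) seedlings under drought stress and in well-watered roots. All calls that the degradome tables list under the name qrb-miR167 were taken. There were 17 of them, on 4 sites of 4 transcripts, out of 231 calls on 89 sites of 85 transcripts for 27 miRNA names. Degradome sequencing captures RNA fragments that lack a cap and reads them from their 5′ ends, so the reads of a sliced transcript start at 1 base, the slice position.

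The drought group held 3 libraries of wild-type root RNA from seedlings that were acclimatised for 8 weeks under full watering and then held for 4 weeks at 25% of the soil moisture of the control plants. The control group held 3 libraries of wild-type root RNA from seedlings with the same acclimatisation that stayed fully watered. In both groups taproot and lateral root tips with the meristematic zone were combined. The labels call the libraries biological replicates, while per the methods of the study the degradome RNA came from pooled samples, so p-values here measure only the spread between these libraries. Per the labels, seedlings were raised in containers and transplanted or were sown in rhizotrons, and the titles do not say which of them entered each library. The deposited tables hold no expression values with which to check the tissue against marker genes.

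miR167 is a conserved plant microRNA that acts in auxin signalling. It pairs with transcripts of auxin response factors, which are transcription factors that bind auxin-responsive promoters, and guides their slicing opposite the middle of the microRNA. In Arabidopsis its known targets are ARF6 and ARF8, which act in flower development and in the formation of adventitious and lateral roots, and IAR3, an enzyme that frees auxin from its conjugates and takes part in the root response to osmotic stress. The study names Qrob_T0190770.2 as ARF6. The other 3 transcripts are called by their identifiers, since no gene name was found for them in the material used here, part of which was shortened.

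2 mature miR167 sequences stood behind the single name. They are shown because the sites differed in the form with which they were listed. Capitals mark the seed, bases 2 to 8, which both forms share.
miR167, 21 nt: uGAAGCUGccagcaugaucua
miR167, 22 nt: uGAAGCUGccagcaugaucuga
Counted from the 5′ end, the forms differed over their first 21 bases by A21G, and the longer form carried 1 further base. The 21 nt form accounted for 14 of the 17 calls and the 22 nt form for 3.

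The target sites are shown 5′ to 3′ because 2 of the 4 transcripts carried the same one, which bears on every count below. Capitals mark the bases that did not pair with miR167 in the deposited alignment. Positions are those on the PM1N transcripts, counted from 1, and no position on the oak genome is given because no genome of that build was used here.
Qrob_T0190770.2: GagaucaGgcuggcagcuuGU
Qrob_T0156190.2: GagaucaGgcuggcagcuuGU
Qrob_T0370790.2: uagaucaGgcuggcagcuuGU
Qrob_T0125800.2: Gcggaucaugcuggaguuuca
The ARF6 site spanned bases 2541 to 2561 of Qrob_T0190770.2, and the site on Qrob_T0156190.2 spanned bases 1719 to 1739. These 2 sites were identical over all 21 bases. The site on Qrob_T0370790.2, at bases 1404 to 1424, was identical to that of ARF6 at 20 of 21 bases and differed by G1U, counted from the 5′ end of the site with the ARF6 base first. The site on Qrob_T0125800.2, at bases 679 to 699, was of another sequence. Over all miRNA names, 26 of the 89 sites (29.2%) shared a target sequence with another transcript.

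The sites fell into 2 alignment types. On ARF6, Qrob_T0156190.2 and Qrob_T0370790.2, bases 1, 2 and 14 of miR167 were unpaired and bases 3 to 13 were paired without a gap. In ARF6 and Qrob_T0156190.2 base 21 was unpaired as well, whereas the U at the start of the Qrob_T0370790.2 site paired with it. On Qrob_T0125800.2 the first 2 bases were paired, and base 8, inside the seed, bulged out of the duplex. That site also had G-U pairs at bases 5 and 20 and no partner for base 22. In every alignment the slice position lay opposite base 10 of miR167, which the method requires of a call.

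The Allen score is a penalty for poor pairing in which a mismatch or gap costs 1, a G-U pair 0.5, and each is doubled at bases 2 to 13. It was 5 for ARF6 and for Qrob_T0156190.2, 4 for Qrob_T0370790.2 and 4.5 for Qrob_T0125800.2. Rebuilt from the pairing, it equalled the deposited score in all 17 miR167 calls and in 217 of the 231 calls overall. The MFE ratio, the free energy of the duplex relative to a perfectly paired one, was 0.797 for ARF6 and Qrob_T0156190.2 (−31.0 against −38.9 kcal/mol), 0.820 for Qrob_T0370790.2 and 0.767 for Qrob_T0125800.2. The median of the 4 miR167 sites was 4.75 for the Allen score and 0.797 for the ratio, and over all 89 sites it was 4.00 and 0.829. Both first bases of the microRNA were unpaired at 3 of the 4 miR167 sites and at 4 of the 85 sites of other names. This is given as a description because 2 of the 3 are the same sequence, and Qrob_T0370790.2 differs from it by 1 base only.

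**Figure D1:**
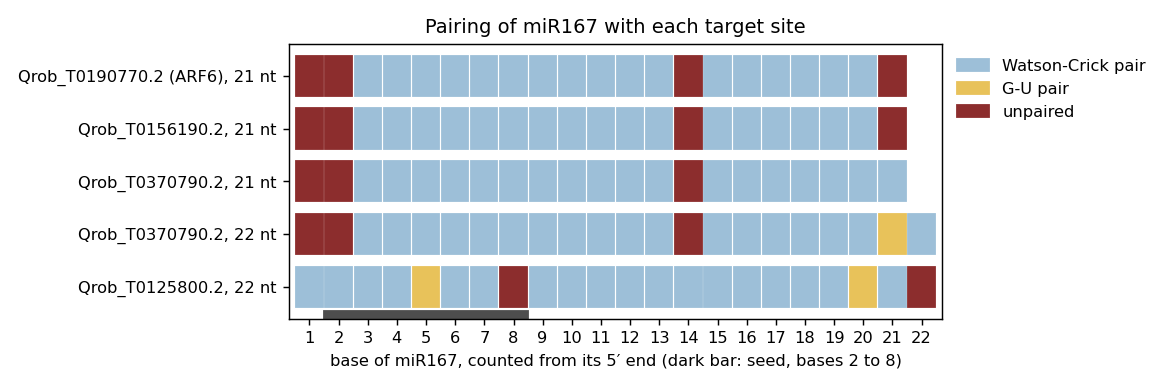
Pairing of each base of miR167 (horizontal axis, counted from its 5′ end) with each target site (rows, with the length of the listed miR167 form), coloured by Watson-Crick pair, G-U pair or no pair. The first 4 rows share unpaired bases 1, 2 and 14, and the row of Qrob_T0125800.2 shows the bulge at base 8.

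The slice position of ARF6 was called in all 6 libraries and with the strongest class of evidence in each. CleaveLand4, with which the authors made the tables, sorts calls into degradome categories 0 to 4. Category 0 means that more reads start at the slice position than at any other base of the transcript. Category 1 means a tie for that maximum, category 2 fewer reads than the maximum but more than the transcript's usual level, category 3 no more than that level, and category 4 only 1 read. The deposited p-value gives the probability of meeting a position of the same category by chance among the alignments of the microRNA up to the rank of the call. The ARF6 slice position, the tenth base from the 3′ end of the site, was in category 0 in the 3 drought and the 3 control libraries. Of all 89 sites, 8 (8.99%) were in category 0 throughout, and 16 (18%) were called in all 6 libraries, among them 2 of the 4 miR167 sites.

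For ARF6 the deposited p-value was 0.00153, 0.00134 and 0.00142 in drought replicates 1, 2 and 3, against 0.00132, 0.00138 and 0.00165 in control replicates 1, 2 and 3. The groups overlapped, and both the lowest and the highest value came from control libraries. On the −log10 scale the mean was 2.85 ± 0.0290 in drought and 2.84 ± 0.0506 in control (SD, n = 3 each). The difference of 0.00599 was smaller than the spread between libraries (p = 0.9, two-sided exact permutation test with 20 assignments, which allows no p under 0.1). It changed sign without drought replicate 2 (−0.00803) or control replicate 3 (−0.0227).

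The p-value grows with the rank of the alignment among all alignments of the microRNA and with the category density, which is the percentage of all transcriptome positions that belong to the category. Ranks and densities were recovered from the p-values. Within one category the p-value holds no further measure of the reads at the site. The test on ARF6, in category 0 throughout, therefore could not show whether its slicing differed between the conditions. Taken at rank 1, the category 0 density alone gave the same difference on the −log10 scale, 0.00599. The ARF6 site had rank 4 in drought replicates 2 and 3 and in control replicates 1 and 2, and rank 5 in drought replicate 1 and control replicate 3. The site on Qrob_T0156190.2, of the same sequence and the same Allen score, had rank 5 in drought replicates 2 and 3 and rank 4 in drought replicate 1, so the 2 sites exchanged places between libraries. The 2 highest p-values of ARF6 were those at rank 5.

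Qrob_T0370790.2 was also called in all 6 libraries, with weaker evidence than ARF6. It held rank 1 for miR167 in each of them, so its p-value equalled the density of its category in that library. Its slice position, at the same place in the site, was in category 2 in all 3 drought libraries, and in categories 4, 2 and 4 in control replicates 1, 2 and 3. A single read therefore lay at the slice position in control replicates 1 and 3. Control replicate 2 and every drought library had more than the typical level of the transcript. The part of read depth in this was not tested. The deposited p-value was 0.0126, 0.0156 and 0.0192 in drought replicates 1, 2 and 3, against 0.0242, 0.0143 and 0.0229 in control replicates 1, 2 and 3. Control replicate 2 fell among the drought values. The mean −log10 p was 1.81 ± 0.0911 in drought and 1.70 ± 0.125 in control (SD, n = 3 each), a difference of 0.11 that was not beyond the spread (p = 0.3, two-sided exact permutation test). It was 0.062 without drought replicate 1, 0.065 without control replicate 1 and 0.18 without control replicate 2. Among libraries of one category these p-values differ only by the density of the library. The category alone describes the reads at the site. The categories averaged 2.00 in drought and 3.33 in control (p = 0.4 in the same exact test). In control replicate 3 alone this site was listed with the 22 nt form, at bases 1403 to 1424, at the same slice position. The Allen score was then 4.5 and the MFE ratio 0.781.

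The other 2 sites were listed in drought libraries and in no control library. Qrob_T0156190.2, with slice position 1730, was called in all 3 drought libraries. It was in category 2 in drought replicate 1 and in category 0 in drought replicates 2 and 3, with deposited p-values of 0.0496, 0.00167 and 0.00177. In drought replicates 2 and 3 more reads thus started at the slice position than at any other base of the transcript, as in ARF6. Of all 89 sites, 2 (2.25%) were called in every drought and no control library, and 2 (2.25%) in every control and no drought library. For Qrob_T0156190.2, the only miR167 site of either kind, the two-sided Fisher's exact test of 3 of 3 against 0 of 3 libraries gave p = 0.1 (adjusted over all sites, p = 1).

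The call in drought replicate 1 passed the p-value limit of 0.05 by 0.000378. It combined rank 4 with a category 2 density of 1.26%, the lowest of the 6 libraries. The category 2 density was 1.56% and 1.92% in drought replicates 2 and 3, and 1.36%, 1.43% and 1.35% in control replicates 1, 2 and 3. At these densities an alignment of rank 4 in category 2 has a p-value of 0.0528 to 0.0561 in the control libraries and up to 0.0748 in the drought libraries. The evidence that placed the site in the table of drought replicate 1 would therefore not have been listed in any other library. When every call had to pass at the highest density of its category, Qrob_T0156190.2 stayed in drought replicates 2 and 3 and was lost from drought replicate 1. No category 0 or category 1 call was limited in this way, since rank 4 or 5 gives at most 0.00248 there in the control libraries.

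A missing call in control therefore covers several states of Qrob_T0156190.2. At rank 4 or 5, with the category 3 steps resolved by alignments shared between libraries, the site would have been listed in every control library in category 0, 1 or 3, and in none of them in category 2 or 4. The tables do not show whether a control library had a position of category 2 or 4 there, or no read at all. What can be said is that in no control library was it listed as the maximum of its transcript.

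**Figure D2:**
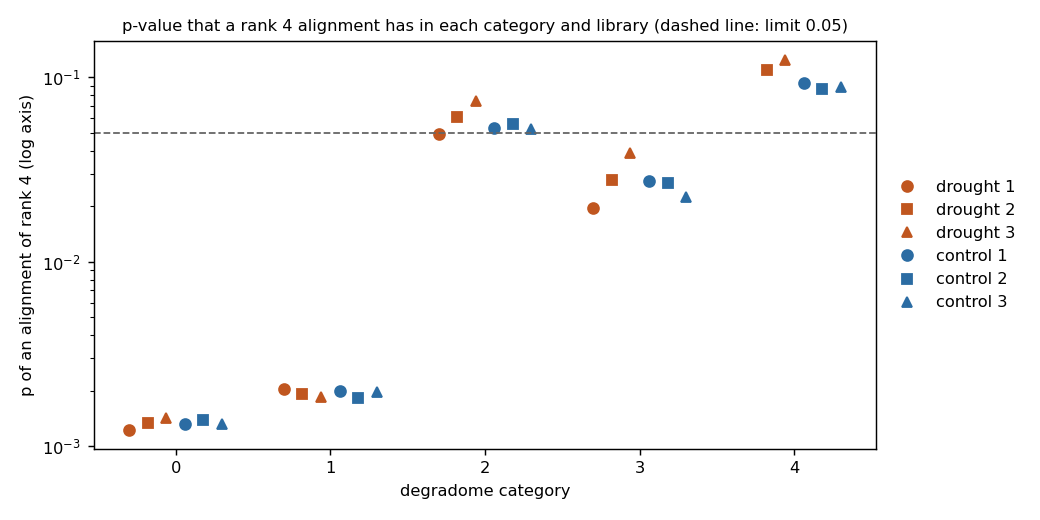
p-value (log axis) that an alignment of rank 4 has in each degradome category (horizontal axis), computed from the recovered category densities of the 3 drought and 3 control libraries, with the limit of 0.05 dashed. In category 2 drought replicate 1 alone lies under the limit, at 0.0496, and drought replicate 1 has no point in category 4, where it had no call.

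Qrob_T0156190.2 and ARF6 carry the same 21 bases, so it is uncertain whether their calls stand for separate sites. A degradome read starts at the slice position and runs into the sequence downstream of it, which the tables do not hold, and whether reads of one transcript could also have been placed on the other was not tested. When sites with one target sequence were counted once, miR167 had no site that was called in all libraries of one condition alone. For the merged site this was fixed in advance, since ARF6 was called in every library.

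Qrob_T0125800.2, with slice position 691, was called in drought replicates 2 and 3 with deposited p-values of 0.0140 and 0.0197, both in category 3 and with the 22 nt form. It was not listed in drought replicate 1 or in control. The two-sided Fisher's exact test of 2 of 3 against 0 of 3 libraries gave p = 0.4 (adjusted over all sites, p = 1). Its rank was 2 in both libraries, taking the category 3 steps as resolved in this way. At rank 2 and with these steps every category would have passed the limit in every control library, category 4 included, with p-values of 0.0442 to 0.0479. In control replicate 1 the category 3 step rested on 1 call and was divided by 4. Undivided it gives a density of 2.75%, at which rank 2 would not have passed. In drought replicates 2 and 3 rank 2 in category 4 gives 0.0566 and 0.0643. These values take the 1 distinct category 4 p-value of each library as rank 1, which was not checked. On that reading the limit for a position with 1 read was less strict in the control libraries than in drought replicates 2 and 3. The site was not listed in any category in the control libraries, and the part of read depth in this was not tested.

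Over all 4 sites, 11 calls came from drought libraries and 6 from control libraries. miR167 had 3, 4 and 4 sites in drought replicates 1, 2 and 3, against 2 in every control library. The groups did not overlap, as held for 2 of the 27 names (7.41%) in this direction and for 1 (3.7%) in the other. The mean was 3.67 ± 0.577 in drought and 2.00 ± 0 in control (SD, n = 3 each), a difference of 1.67 sites (p = 0.1 in the two-sided exact permutation test, its lowest possible value, and 0.9 when adjusted over all names). With sites of one target sequence counted once, the mean was 2.67 in drought and 2.00 in control, and the difference fell to 0.667 sites (p = 0.4 in the same exact test). It was also 0.667 with a p-value limit of 0.01. The merged difference came from Qrob_T0125800.2 alone, and that at the limit of 0.01 from Qrob_T0156190.2 alone. Keeping Allen scores up to 4 gave 0.333 sites, a filter that removed every call of ARF6, Qrob_T0156190.2 and Qrob_T0125800.2. Qrob_T0370790.2 then stayed in 3 drought and 2 control libraries. Its call in control replicate 3 was removed only because it was listed there with the 22 nt form. Of the 89 sites, 23 (25.8%) were called in drought alone and 30 (33.7%) in control alone, against 2 and 0 of the 4 miR167 sites.

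**Figure D3:**
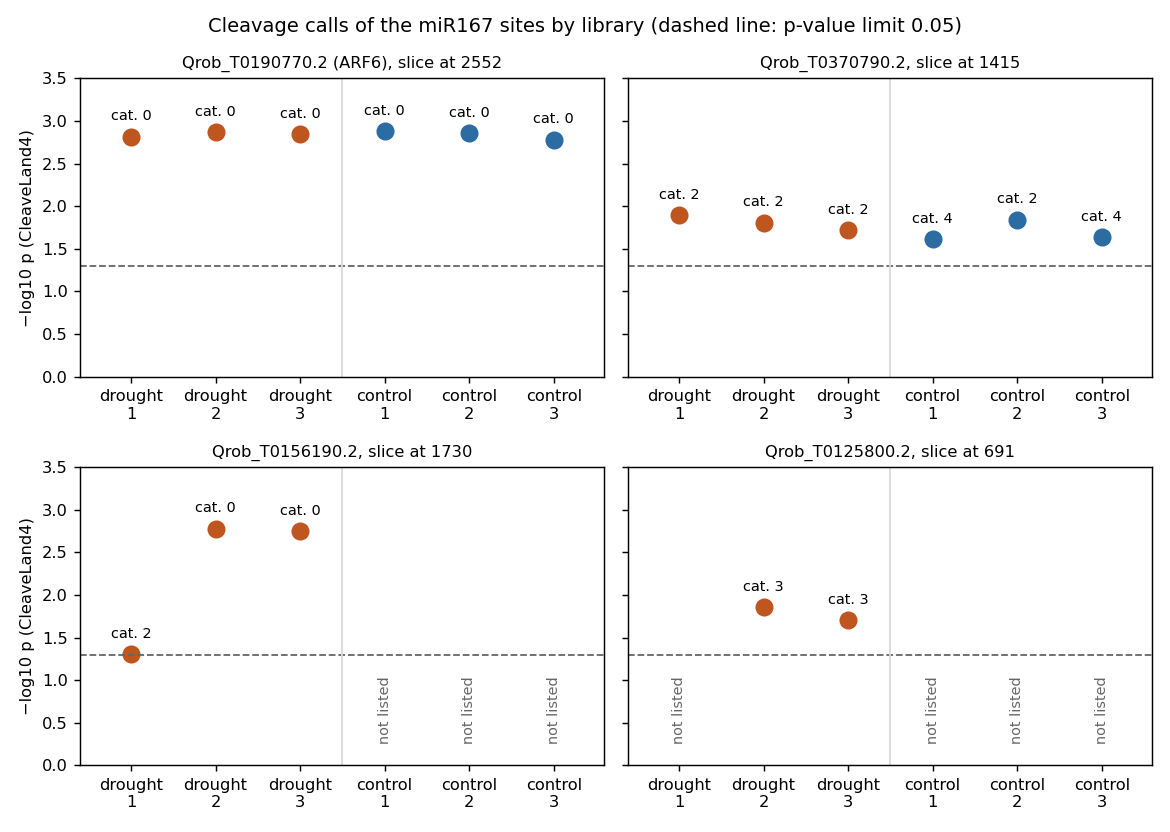
−log10 of the deposited p-value (vertical axis) of each miR167 site in the 3 drought and 3 control libraries, with the degradome category beside each point and the limit of 0.05 dashed. ARF6 lies between 2.78 and 2.88 in every library, and Qrob_T0156190.2 is at the limit in drought replicate 1 and at 2.78 and 2.75 in drought replicates 2 and 3.

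The calls of miR167 were also set against all calls of the same library. These numbered 33, 41 and 38 in drought replicates 1, 2 and 3, against 37, 45 and 37 in control replicates 1, 2 and 3. miR167 made up 9.09% of them in drought replicate 1 (exact Clopper-Pearson 95% interval 1.92% to 24.3%), 9.76% in drought replicate 2 (2.72% to 23.1%) and 10.5% in drought replicate 3 (2.94% to 24.8%). In control replicates 1 and 3 it made up 5.41% (0.661% to 18.2%) and in control replicate 2 4.44% (0.543% to 15.1%). The intervals take the calls of a library as independent draws, although some sites share a target sequence. They cover counting error of the calls alone and are no test between the conditions. Those of the drought and control libraries overlapped widely. The means of 9.79% in drought and 5.09% in control were 4.71 percentage points apart (p = 0.1 in the two-sided exact permutation test, again its lowest possible value). With sites of one target sequence counted once the difference was 2.73 points, with a p-value limit of 0.01 it was 2.43, and with Allen scores up to 4 it was 1.36. The tables hold no read numbers, so the depth behind each call is unknown from them. The sequencing statistics of the study list more raw reads for each drought library than for any control library, and the part of read depth in the number of sites was not tested.

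Among the other microRNAs of the auxin pathway, miR160, which also targets auxin response factors, had 4 sites in each of the 6 libraries. miR390, which starts the production of small RNAs against further auxin response factors, had 2, 1 and 1 sites in drought replicates 1, 2 and 3 and none in control (adjusted p = 0.9 over all names, two-sided exact permutation test). miR393, which targets auxin receptors, had 1, 3 and 2 sites in drought replicates 1, 2 and 3, against 1, 2 and 2 in control replicates 1, 2 and 3. miR164, which the study ties to NAC transcription factors of root development, had 1 site in control replicate 1 and none in the other libraries. No other microRNA had a call on any of the 4 transcripts called for miR167.

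**Figure D4:**
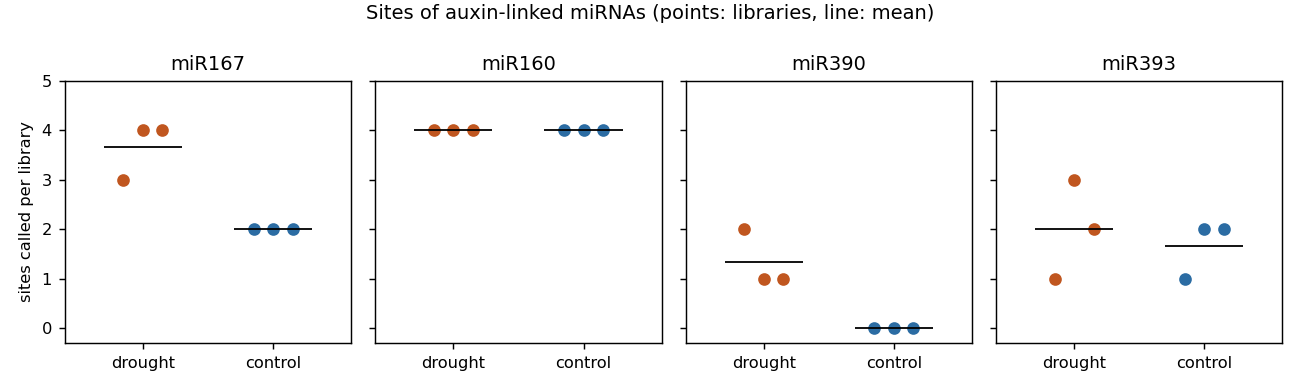
Number of sites called per library (vertical axis) for miR167, miR160, miR390 and miR393 in drought (left in each panel) and control libraries, with the mean as a line. miR167 has 3 to 4 sites in drought libraries and 2 in control libraries, and miR160 has 4 in all.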

How the data were processed

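Per the file headers, the authors analysed every library on its own in CleaveLand4 version 4.5 (p-value cutoff 0.05, categories up to 4) against the longest transcripts of the PM1N set and one alignment file of miRNA sequences. Each deposited p-value is uncorrected for the miRNAs and categories searched, each deposited Allen score is a pairing penalty, and each deposited MFE ratio is relative to a perfect duplex. Tables list passing calls alone. Reads were 50 nt long per the labels.

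Sites were defined by transcript and slice position. Groups came from the sample titles. CleaveLand4 takes p as 1 minus the n-th power of (1 − f), for density f and rank n, so in each library and category the largest step of which all −ln(1 − p) were whole multiples (tolerance 1e-06 per unit of divisor) gave f, and the multiple gave n. For category 3, each step was divided by a whole number so that shared alignments came closest to their ranks in control replicate 2. This was chosen after seeing the data. Step recovery was tested on simulated p-values, where a step counted as recovered up to a common factor of the drawn ranks. The test therefore could not detect a step that was a multiple of the true one.

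Differences per library were tested by two-sided exact permutation and presence by Fisher's exact test, with Benjamini-Hochberg adjustment over 27 names or 89 sites. All 4 miR167 sites are named. The members, lists and alternatives were chosen with earlier results of these data known. As alternatives, calls were restricted to p-values up to 0.01, to categories 0 to 2 or to an Allen score of at most 4, target sequences were merged, one common density was applied, other measures replaced −log10 p, a replicate block was used and each library was left out. Tests used scipy 1.17.1 and numpy 2.4.6, tables pandas 2.3.3 and figures matplotlib 3.10.9, in Python 3.11.15.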

Additional observations from a re-analysis of the deposited data

How the results depend on the processing

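The exact tests used cannot go below p = 0.1 with 3 libraries against 3, so only directions and counts are described. The number of miR167 sites and their percent of all calls were higher in drought under every alternative run, by 0.333 to 1.67 sites and 1.36 to 5.14 percentage points with all libraries kept. The alternatives recounted the same 4 sites, 2 of which were listed in drought libraries alone, so they are no separate support. The 0.333 sites, with an Allen score of at most 4, rested on the miR167 form listed for Qrob_T0370790.2 in control replicate 3. Without one library in turn the differences ran from 1.50 to 2.00 sites and from 4.34 to 5.06 points. The count of miR167 sites that separated the conditions completely was 0, in place of 1, with a p-value limit of 0.01, an Allen score of at most 4, merged target sequences, and one common category density with category 3 steps resolved or not. For Qrob_T0156190.2 the Allen limit and the merging fixed this outcome in advance. Its score is above 4, and its sequence is that of ARF6, which was called in every library. Leaving out single libraries the count was 1 or 2, with 2 when drought replicate 1 was left out, since Qrob_T0125800.2 then counted too. For ARF6 the difference in −log10 p ran from −0.0227 to 0.0254 without one library, negative without drought replicate 2 (−0.00803) or control replicate 3 (−0.0227), and its category difference was 0. For Qrob_T0370790.2 the difference in −log10 p ran from 0.062 to 0.18. Within a category both differences hold only the category density of each library and the rank. The replicate block left the differences as they were (1.67 sites, exact test over sign changes, p = 0.25, the smallest possible). Per the labels same-numbered libraries shared a number, and whether they shared anything more is not stated. The correlation of their deviations over the 89 sites was −0.106, −0.0456 and −0.141 for replicates 1, 2 and 3. Between drought and control libraries of different numbers it ran from −0.0284 to 0.142.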
